A study of Mus musculus with 23 samples.

Results

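RNA-seq of retinal microglia at day 7 after optic nerve crush (ONC) was compared between Spp1 KO and WT mice. ONC is an injury that severs the axons of retinal ganglion cells (RGCs) behind the eye. The comparison covered 7 of the 23 libraries of the series, 3 from WT and 4 from KO mice, and 15269 of 35825 genes, those that reached 10 normalized counts in 3 or more of these 7 libraries. Of these genes, 14579 were protein-coding. WT mice were CX3CR1-GFP mice, in which 1 copy of the fractalkine receptor gene Cx3cr1 is replaced by GFP, so that microglia fluoresce. KO mice were Spp1 KO; CX3CR1-GFP mice, which carry the same reporter and are homozygous for a germline Spp1 mutation, so every cell type carries it. Live single GFP+ cells were sorted by FACS from retinas that the methods describe as pooled over several mice of one genotype and condition. For the study as a whole the methods state age-matched mice, with males and females in equal numbers. The sexes within each pool were not given. No ages were given in the sources used here. Libraries of naive retinas of both genotypes (4 each) served as the reference without crush, and 4 libraries of each genotype after elevation of intraocular pressure entered the fit for its estimate of the spread.

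SPP1, or osteopontin, is a secreted phosphoprotein that binds integrins and CD44 and can be made by neurons, macrophages and microglia. Microglia are the resident macrophages of the retina. In the uninjured state they express genes such as P2ry12 and Tmem119, and after injury they take up debris, digest it in lysosomes and can turn on interferon-response, antigen-presentation and lipid-handling genes. Other macrophages sit at the borders of nervous tissue, along vessels and in the ciliary body, and also express Cx3cr1 to some degree. They are known by the mannose receptor gene Mrc1, the hyaluronan receptor gene Lyve1 and the chemokine gene Pf4, so that a gate on GFP can hold both cell types. In such bulk samples, a change in the number of cells of a type and a change in RNA per cell cannot be told apart.

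Spp1 itself, on chromosome 5 (chr5:104435118-104441050, + strand, GRCm38), was read in libraries of both genotypes. The normalized count was 14560, 16070 and 22910 in WT replicates 1 to 3. It was 4750, 6811, 15 and 6226 in the libraries labelled KO, replicates 1 to 4. All libraries labelled KO lay below all WT libraries, but only replicate 3 was near 0, and the other three kept Spp1 reads against their label. The difference of mean log2 values was -3.71, with p = 0.0571 in an exact two-sided permutation test, the smallest p that 3 against 4 libraries allow. When 1 library was left out it ranged from -4.49 to -1.58, the latter without KO replicate 3. Whether these reads come from the mutant allele or from cells that were not KO was not tested, and "KO" below means the libraries labelled KO. Of 143 genes tested within 10 Mb of Spp1, 0 were called after ONC by limma (0.0982% of all genes), and 22 (15.4%) had an unadjusted p under 0.05, against 9.86% of all genes.

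The libraries held 22180480 to 29181636 reads on genes, and 3 reads, the upper limit behind a value of 0, corresponded to 2.78 to 4.03 normalized counts per library, counting error only. All 18 homeostatic microglia genes passed the filter, and microglial genes were abundant in all 7 libraries (P2ry12 25230 to 47650, Tmem119 29570 to 62260). The WT libraries differed among themselves more than the KO libraries. The median standard deviation of a gene over the group, on the log2 scale, was 0.591 in WT and 0.316 in KO, against 0.276 to 0.476 in the other 4 groups of the series. WT replicate 1 stood apart in housekeeping RNA, with cytosolic ribosomal protein genes at 1.92% of its normalized counts, against 0.859 to 1.23% in the other 6 libraries. WT replicate 2 stood apart in retinal RNA, with rod photoreceptor genes at 2.31%, against 0.639 to 1.27%. The Y-linked gene Ddx3y was at 1797 in WT replicate 1 and at 1369 to 1717 in the KO libraries, but at 9.21 and 3.51 in WT replicates 2 and 3. Y-linked RNA was therefore partly confounded with genotype, with 1 WT library at the level of the KO libraries. With the mean of the Y-linked genes as a covariate, added after seeing the data, 13 genes were called, 11 of them among the 15 described below.

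After ONC 15 genes were called between KO and WT, 13 higher and 2 lower in KO. A call required that the Benjamini-Hochberg adjusted p fell under 0.05 and that the log2 fold change exceeded 0.58 in size, in a limma fit of log2(normalized count + 1) over the 6 groups of the series. These are 0.0982% of the genes tested, with 0.0851% higher and 0.0131% lower. At an unadjusted p under 0.05, 1097 genes were higher (7.18%) and 408 lower (2.67%). The filter could admit a gene through KO libraries alone, as for Tlr5, Rps12l1 and Gipc2. Through WT libraries alone, as for Rps12-ps3, a gene passed only if every WT library reached the filter's threshold. These counts of higher and lower genes therefore depend on the filter and are no test of direction. The log2 fold change was above 0 in 52.4% and below 0 in 47.6% of genes, with a median of 0.03. In the plot of the called genes by library, the KO libraries lie beyond the WT libraries on 1 side for each of the 15 genes, a pattern found in 638 genes above (4.18%) and 364 genes below (2.38%).

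**Figure D1:**
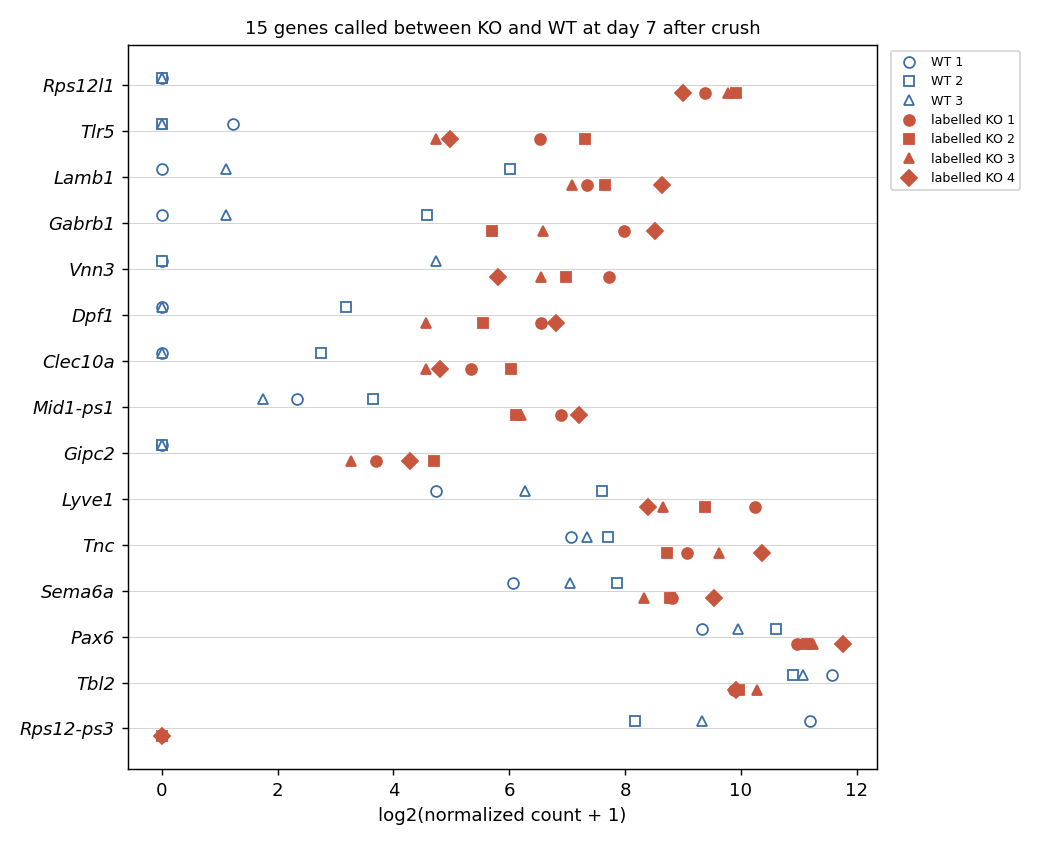
Normalized counts of the 15 called genes, as log2(normalized count + 1), in each WT library (open blue symbols) and each library labelled KO (filled red symbols) at day 7 after ONC. 13 genes sit to the right in KO and 2, Tbl2 and Rps12-ps3, to the left; WT replicate 2 (open squares) is often the WT library nearest to KO.

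The call with the smallest adjusted p was Tlr5, the receptor for bacterial flagellin (chr1:182954788-182976044). Its normalized count was 1.34, 0 and 0 in WT and 91.0, 157.7, 25.7 and 30.6 in KO. WT libraries held 1 read of Tlr5 in all and KO libraries 278, a ratio of 182 with a 95% counting interval of 32.4 to 7220. The log2 fold change was 5.48 ± 0.60 (SE, n = 3 and 4, limma adjusted p = 0.000122). Tlr5 was at 131.5 ± 44.3 (SD, n = 4) in naive WT and 129.1 ± 76.8 (SD, n = 4) in naive KO microglia. The WT libraries after ONC lay furthest below these means, and the KO mean after ONC, 76.2, was below them too. Among 17 Toll-like receptor pathway genes tested it was the only one called, and 12 of the 17 were lower in KO.

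Vnn3, a vanin of the pantetheinase family (chr10:23851462-23869843), showed a like pattern. Its normalized count was 0, 0 and 25.7 in WT and 210.7, 125.1, 92.2 and 54.6 in KO, with a log2 fold change of 5.18 ± 0.84 (adjusted p = 0.00691). It was at 109.6 ± 41.3 (SD, n = 4) in naive WT microglia. WT replicate 3 was the only WT library with reads of it.

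Lamb1, Tnc and Sema6a, genes of extracellular matrix and of axon guidance, were also higher in KO. Lamb1, the laminin beta 1 chain (chr12:31265234-31329644), was at 0, 63.3 and 1.17 in WT and at 161.6, 199.0, 133.9 and 397.1 in KO (log2 fold change 5.30 ± 0.92, adjusted p = 0.0132). Tnc, the matrix glycoprotein tenascin C (chr4:63959785-64047015), was at 132.9, 208.3 and 161.4 in WT and at 538.7, 423.1, 782.2 and 1312 in KO (2.07 ± 0.33, adjusted p = 0.00548). The WT libraries lay close together for Tnc, and even the highest of them was well below the lowest KO library. Sema6a, a transmembrane semaphorin, was at 65.8, 232.5 and 131.0 in WT and at 319.3 to 736.9 in KO (1.87 ± 0.37, adjusted p = 0.0469). For all 3 genes the means of both groups after ONC lay below the naive means. Naive means in WT and KO were 427 and 553.9 for Lamb1, 2034 and 1134 for Tnc, and 1317 and 1042 for Sema6a. The KO means after ONC were 222.9, 764 and 484.5.

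Gabrb1 and Pax6, genes better known from neurons, were also called higher in KO than in WT, and the means of both groups lay below the naive means. Gabrb1, a GABA type A receptor subunit on chromosome 5 (chr5:71658113-72149037), was at 0, 23.01 and 1.17 in WT and at 251.4, 51.1, 94.3 and 362.9 in KO (5.29 ± 0.80, adjusted p = 0.00548), a mean of 8.06 in WT and 189.9 in KO against 367.4 and 347.4 in naive retinas. Pax6, the transcription factor of amacrine and other retinal cells (chr2:105668900-105697364), was at 642.9, 1564 and 987.3 in WT and at 1990, 2261, 2427 and 3471 in KO (1.31 ± 0.23, adjusted p = 0.0120). Dpf1, a subunit of the neuronal BAF chromatin complex, was at 0, 8.06 and 0 in WT and at 22.5 to 111.1 in KO (4.80 ± 0.76, adjusted p = 0.00566). For Lamb1, Gabrb1 and Dpf1, WT replicate 2, the library rich in retinal RNA, was the only WT library above the 3-read limit. The part of retinal RNA in these 3 differences was not tested.

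Besides Rps12-ps3, described below, the gene called lower in KO was Tbl2, a WD-repeat protein of the endoplasmic reticulum (chr5:135149657-135165760). It was at 3039, 1909 and 2156 in WT and at 943.4, 1002, 1245 and 963.7 in KO, with a log2 fold change of -1.17 ± 0.21 (adjusted p = 0.0199). Naive levels were 1643 ± 320 (SD, n = 4) in WT and 1473 ± 309 (SD, n = 4) in KO.

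Among the remaining calls, Gipc2, a PDZ-domain protein, was at 0 in all WT libraries and at 8.57 to 25.02 in KO, at least 4.37-fold higher against the limit of 3 reads per library. Mid1-ps1, a pseudogene placed on the Y chromosome, was at 2.34 to 11.5 in WT and at 68.5 to 146.3 in KO. It did not follow Ddx3y, since WT replicate 1, which had Y-linked reads, held 4.03. A pair of copies of the ribosomal protein gene Rps12 moved in opposite directions. Rps12l1 (chr7:56014016-56014414) was at 0 in all WT libraries and at 660.8, 967.0, 873.3 and 509.2 in KO (at least 205-fold higher), whereas Rps12-ps3 (chr19:59322290-59322783) was at 2339, 287.7 and 643.4 in WT and at 0 in all KO libraries (at least 339-fold lower). Rps12l1 was also at 0 in all naive libraries of both genotypes, and Rps12-ps3 was at 360.8 ± 167.5 (SD, n = 4) in naive KO. The opposite shift was not particular to ONC. After elevation of intraocular pressure, Rps12l1 was at 560.4 ± 404.9 in KO and 0 in WT (SD, n = 4). Rps12-ps3 was at 196.7 ± 393.3 in KO and 789.5 ± 98.9 in WT there, and limma called both. Reads of such near-identical copies can be assigned to one or the other, so both calls are uncertain. Rps12 itself, on chromosome 10, had a log2 fold change of -0.88 (adjusted p = 0.427).

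The number of calls depended on which WT library was in the comparison. Without WT replicate 2, 844 genes were called (5.53%), 693 higher (4.54%) and 151 lower (0.989%), among them all 15. Without WT replicate 1, 2 genes were called (0.0131%), Tlr5 (log2 fold change 5.89, adjusted p = 0.000264) and the keratin gene Krt80, which is not among the 15 and was read in WT replicate 1 alone of the WT libraries. Without WT replicate 3, 32 genes were called, 13 of them among the 15. Leaving out a KO library gave 12 to 15 calls. Of the 693 genes called higher without WT replicate 2, that library lay within or above the range of the KO libraries in 554 and above every KO library in 190. Of the 151 called lower, it lay within or below the KO range in 122. In a fit of the 7 ONC libraries alone, only Rps12l1 and Rps12-ps3 were called, and the other 13 genes had an adjusted p of 0.831. On whole reads recovered from the normalized counts, edgeR called 1 gene, Rps12l1, with 705 genes at an unadjusted p under 0.05, and DESeq2 called 14, 11 higher and 3 lower, of which 7 were among the 15.

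**Figure D2:**
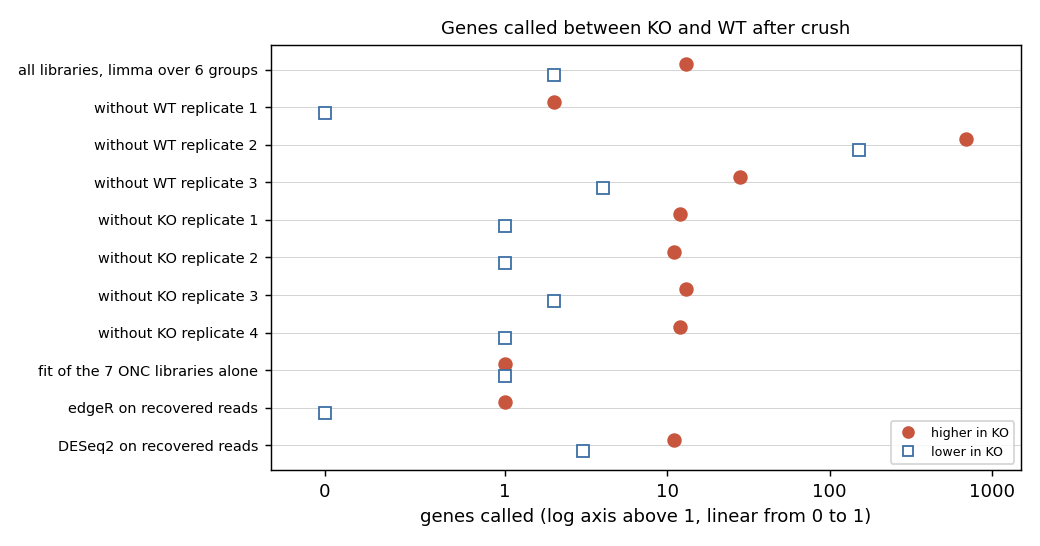
Number of genes called higher in KO (filled red circles) and lower in KO (open blue squares) with all libraries, without each of the 7 libraries in turn, and with other fits, on an axis that is logarithmic above 1. Leaving out WT replicate 2 gives 693 and 151 genes, leaving out WT replicate 1 gives 2 and 0, and leaving out any KO library gives 11 to 13 and 1 or 2.

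Genes of border macrophages were mostly higher in KO. Of 20 listed genes, 18 passed the filter, and 16 of the 18 were higher in KO, 13 of them with an unadjusted p below 0.05 (0 lower), against 7.18% of all genes. Lyve1 and Clec10a were called. The median log2 fold change over the 18 was 1.86, against 0.03 over all genes, and in 8 of the 18 every KO library lay above every WT library, against 4.18% of all genes. Since some of these genes passed the filter only through KO libraries, these counts describe the list and are no test of it.

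Lyve1 (chr7:110850607-110863239) had normalized counts of 25.5, 192.2 and 76.0 in WT and of 1209, 665.7, 401.8 and 336.0 in KO (log2 fold change 2.97 ± 0.50, adjusted p = 0.00908). Clec10a, a C-type lectin of macrophages and dendritic cells (chr11:70156197-70170834), was at 0, 5.75 and 0 in WT and at 39.5, 64.2, 22.5 and 26.9 in KO (4.26 ± 0.67, adjusted p = 0.00548). For both genes the KO libraries were all above the WT libraries. Naive WT microglia were above either group after ONC for Lyve1, at 1712 ± 473 (SD, n = 4), and naive KO microglia were at 1135 ± 115 (SD, n = 4).

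The other genes of the list did not pass the adjusted threshold. Mrc1 was at 200, 727.3 and 1459 in WT and at 7038, 4261, 3368 and 1619 in KO (2.58 ± 0.55, adjusted p = 0.0779). Cd163, the haemoglobin scavenger receptor, was at 0, 70.2 and 432.8 in WT and at 1875, 1593, 491.8 and 461.9 in KO (4.86 ± 1.20, adjusted p = 0.140). In both genes the order of the libraries was the same at the ends, with KO replicate 1 highest and WT replicate 1 lowest, and KO replicate 4 was close to WT replicate 3. Pf4 was at 150.3, 168.0 and 396.6 in WT and at 438.8 to 2622 in KO (adjusted p = 0.121). F13a1, the clotting factor XIII A chain, was at 228.2, 685.8 and 3794 in WT and at 2271 to 11720 in KO, so that its groups overlapped (adjusted p = 0.152). Outside the list, Msr1, the class A scavenger receptor that border macrophages and activated microglia share, was at 335.5, 424.6 and 751.0 in WT and at 893.3 to 3486 in KO (1.95 ± 0.46, adjusted p = 0.123). Lyz2, a lysozyme gene held in the monocyte list, was at 11380, 30440 and 17850 in WT and at 51760 to 84340 in KO (1.80 ± 0.40, adjusted p = 0.108). Of 18 monocyte genes tested, 11 were higher and 7 lower in KO (median 0.26), 3 higher with an unadjusted p below 0.05 (0 lower), and limma called 0. The monocyte list made up 0.0557, 0.140 and 0.0723% of normalized counts in WT and 0.209 to 0.295% in KO, with no overlap. Most of that share was Lyz2 in every library. The part of the monocyte list in the border macrophage differences was not tested.

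Summed over the list, border macrophage genes made up 0.0405, 0.0413 and 0.0743% of normalized counts in WT and 0.186, 0.110, 0.0900 and 0.0706% in KO. KO replicate 4 thus lay within the WT range, and KO replicate 1 held most. In naive retinas the shares were 0.150 to 0.287% in WT and 0.115 to 0.209% in KO. The direction between genotypes was the opposite there, with 16 of the 18 genes lower in KO, 7 at an unadjusted p under 0.05 (against 10.9% of all genes), and a median log2 fold change of -0.80, against 0.01 over all genes. The same list was higher in 17 of 18 genes without WT replicate 1 (median 1.57) and in 14 of 18 without WT replicate 2 (median 1.69), with 12 at an unadjusted p under 0.05 in both.

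**Figure D3:**
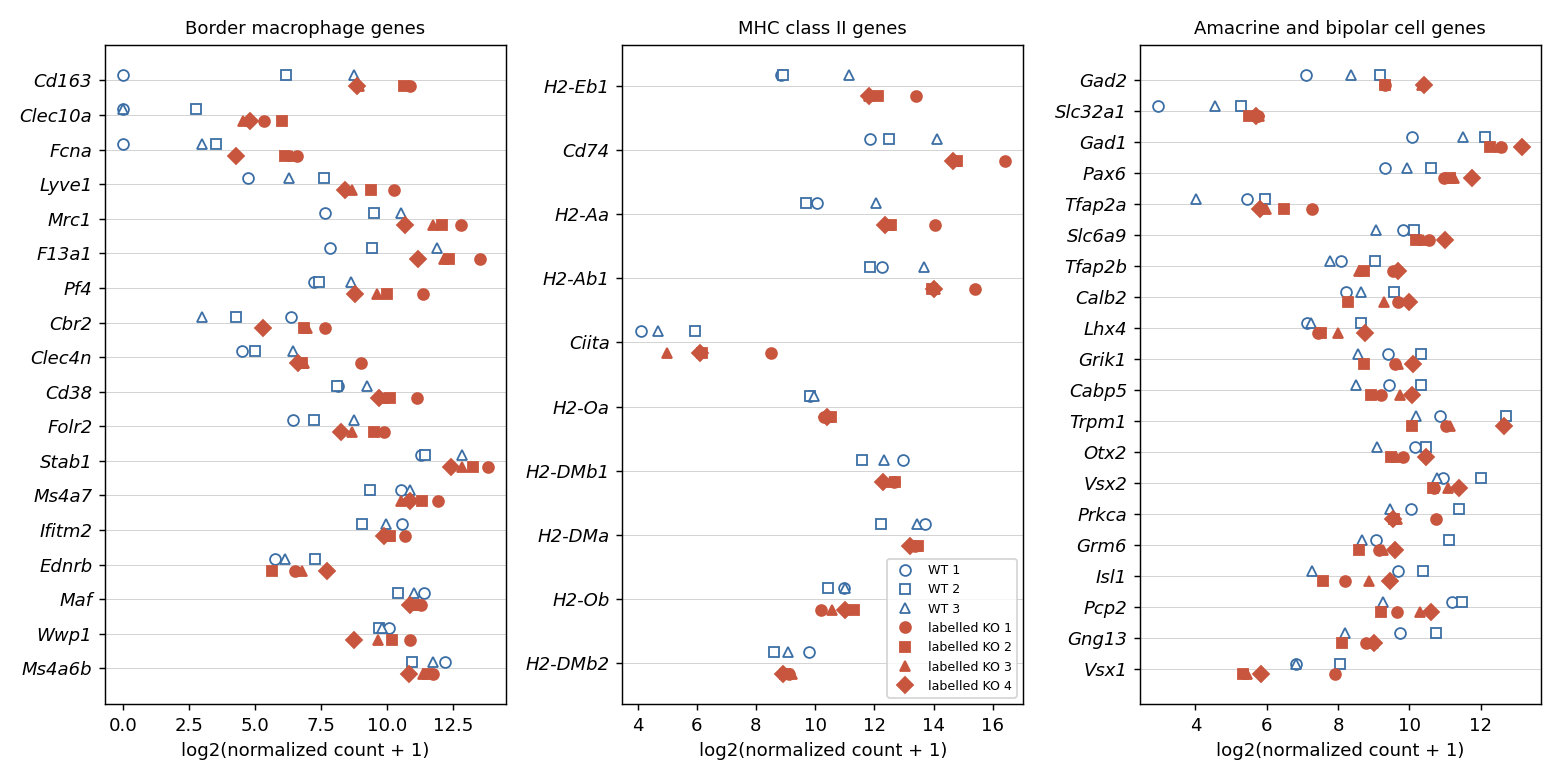
Genes of 3 lists that passed the filter, as log2(normalized count + 1), in each WT library (open blue) and each library labelled KO (filled red), ordered by log2 fold change. The KO symbols lie to the right of all WT symbols in 8 of 18 border macrophage and 5 of 10 MHC class II genes. The same holds in 5 of 20 amacrine and bipolar cell genes, against 4.18% of all genes, and the groups overlap in the others.

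Among MHC class II genes, which present extracellular antigen, the classical chains and Cd74 had the lowest p. Of 10 genes, all of which passed the filter, 8 were higher. Of these, 4 (H2-Eb1, Cd74, H2-Aa and H2-Ab1) had an unadjusted p under 0.05, and limma called 0. The median log2 fold change over the 10 was 1.04. In 5 of the 10, these 4 and the non-classical H2-Oa, all KO libraries lay above all WT libraries, against 4.18% of all genes. H2-Eb1, an I-E beta chain, was at 455.0, 479.9 and 2262 in WT and at 10990, 4427, 3589 and 3625 in KO (2.66 ± 0.66, adjusted p = 0.143). Cd74, the invariant chain, was at 3703, 5713 and 17980 in WT and at 87320, 28690, 27480 and 25860 in KO (2.33 ± 0.61, adjusted p = 0.170). H2-Aa was at 827.4 to 4262 in WT and at 5301 to 16990 in KO, and H2-Ab1 at 3666 to 13260 in WT and at 15670 to 43240 in KO. KO replicate 1 was the highest library for these 4 genes, and WT replicate 3 the highest of the WT libraries, as for Mrc1 and Cd163 but not for Lyve1 and Clec10a. The master regulator Ciita was at 16.1, 61.0 and 24.6 in WT and at 365.1, 71.8, 31.1 and 67.6 in KO, and its groups overlapped. The peptide-loading genes H2-DMa and H2-DMb1 had log2 fold changes of 0.25 and 0.25. In naive retinas H2-Eb1 and Cd74 had differences of 1.83 and 1.55 in the same direction (adjusted p = 0.131 and 0.164), and the differences after ONC did not pass a test for departure from those, the interaction (adjusted p = 0.737 and 0.729).

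Classical MHC class II promoters share a conserved Y box, an inverted CCAAT element. Of the 10 genes, 7 had a promoter in RefSeq (250 bases before to 50 after the start, GRCm38.p6), and 3 of these held CTGATTGG or its reverse complement CCAATCAG, which 4.70% of 27025 genes with a promoter hold. The motif stands in capitals in the windows below, shown for the members whose promoter holds it and given 5′ to 3′ on the strand of the gene. They lie at chr17:34305794-34305823 (+), chr17:34287856-34287885 (-) and chr17:34092322-34092351 (+).
H2-Eb1: ctcctttgatgCTGATTGGctcccagcact
H2-Aa: aagagaattttCTGATTGGttctggcgagt
H2-Oa: agagaactgctCTGATTGGctgcttaccgc
H2-Oa, a chain of the non-classical H2-O that tempers peptide loading, shares the motif, but its values differed less, at 912.6 to 992.0 in WT and 1259 to 1469 in KO (0.53 ± 0.31, adjusted p = 0.596).

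Type I interferon-response genes were mostly lower in KO. Of 32 genes, all tested, 29 were lower in KO, 6 at an unadjusted p under 0.05 (0 higher), and 0 were called by limma. The median log2 fold change was -0.50. In 0 of the 32 did all KO libraries lie below all WT libraries. Isg15, an ubiquitin-like modifier, was at 2080, 925.2 and 2516 in WT and at 743.4, 1094, 1036 and 723.9 in KO (-0.94 ± 0.39, adjusted p = 0.425). Zbp1, a sensor of Z-form nucleic acid, was at 4986, 1955 and 4898 in WT and at 1526 to 2295 in KO (-0.91 ± 0.38, adjusted p = 0.427). WT replicate 2 fell within the KO range for both, while WT replicates 1 and 3 were above it. Summed, the list made up 0.661, 0.574 and 0.795% of normalized counts in WT and 0.414, 0.571, 0.518 and 0.421% in KO, against 0.106 to 0.176% in naive WT and 0.0994 to 0.162% in naive KO. The direction held in 29 of 32 genes without WT replicate 1 and in 30 of 32 without WT replicate 2. Naive retinas had 30 of 32 genes lower in KO as well (median -0.44), and the interaction had an unadjusted p under 0.05 in 0 of the 32, with 0 called by limma.

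Many such genes are bound through an interferon-stimulated response element. Its core, searched as a pair of GAAA with any 2 bases between them, or TTTC spaced the same way, was in the promoter of 14 of the 22 list members with a RefSeq promoter and of 3.99% of all 27025 genes. The 5 windows below are those of the members with the smallest p whose promoter holds the core, in capitals, in the strand of the gene. They lie at chr4:156200877-156200906 (-), chr19:34607759-34607788 (+), chr12:26456553-26456582 (-), chr19:34583363-34583392 (+) and chr5:120907526-120907555 (-).
Isg15: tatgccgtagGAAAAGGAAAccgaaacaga
Ifit3b: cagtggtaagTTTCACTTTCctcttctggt
Rsad2: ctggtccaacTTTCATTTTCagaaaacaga
Ifit3: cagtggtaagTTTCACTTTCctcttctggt
Oas1a: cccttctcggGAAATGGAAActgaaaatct
The windows of Ifit3 and Ifit3b are identical, and the genes are near-identical copies. Ifit3 had a log2 fold change of -0.57 and Ifit3b of -0.67, and their reads may be divided between them. Rsad2 was at 2364 to 4019 in WT and 1044 to 2882 in KO, and Oas1a at 4900 to 12950 in WT and 4502 to 6722 in KO. These groups overlapped, and neither gene passed the test (adjusted p = 0.535 and 0.590).

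**Figure D4:**
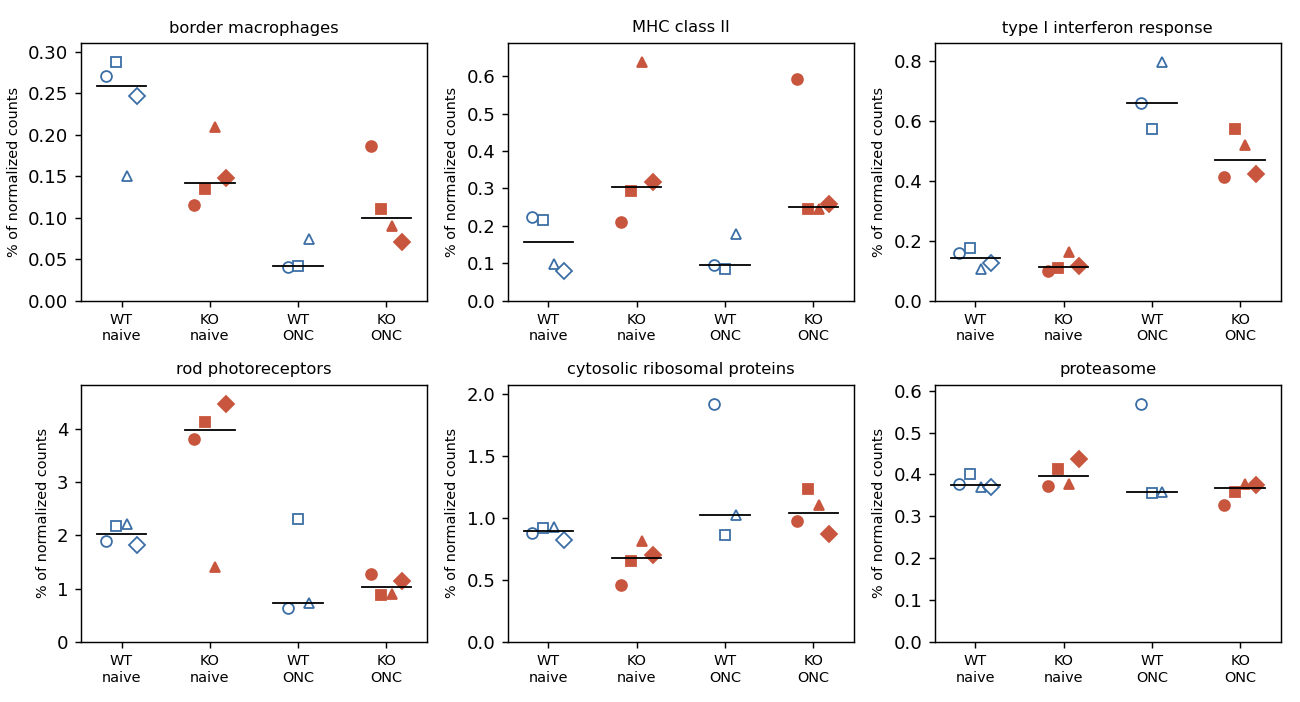
Share of each library's normalized counts taken by the genes of 6 lists (%, axes from 0), in naive and ONC libraries of WT (open blue) and KO (filled red), with black bars at the group medians. Border macrophage and MHC class II shares after ONC are mostly higher in KO, the interferon share is lower, rod RNA is highest among ONC libraries in WT replicate 2, and ribosomal protein and proteasome RNA are highest in WT replicate 1.

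Several genes of amacrine cells, mostly inhibitory interneurons of the inner retina, had higher values in KO, and the groups overlapped for genes of bipolar cells. Of 20 amacrine and bipolar genes, all tested, 11 had higher and 9 lower values in KO (median log2 fold change 0.09). Of these 20, 7 were higher with an unadjusted p below 0.05 (0 lower), against 7.18% of all genes. Of the 7, 1, Pax6, was called. The 7, singled out after their values were seen, were Pax6, Gad1, Gad2, Slc32a1, Slc6a9, Tfap2a and Tfap2b, all known from amacrine cells. Gad1, a GABA-synthesising enzyme, was at 1072, 4481 and 2887 in WT and at 6061, 4873, 5999 and 9207 in KO (1.40 ± 0.33, adjusted p = 0.123). Gad2 was at 136.9, 582.3 and 328.7 in WT and at 639.3, 634.1, 1319 and 1350 in KO (1.63 ± 0.48, adjusted p = 0.246). Slc32a1, the vesicular transporter of GABA and glycine, was at 6.71 to 38.0 in WT and 44.6 to 53.6 in KO. In these 3 genes WT replicate 1 was lowest and WT replicate 2 highest among WT libraries. The bipolar cell genes Grm6 and Trpm1 were highest of all 7 libraries in WT replicate 2. Grm6 was at 535.5, 2229 and 404.7 in WT and at 381.8 to 773.0 in KO (-0.47 ± 0.61), and Trpm1 at 1845, 6766 and 1172 in WT and at 1086 to 6438 in KO (-0.03 ± 0.53). Of 20 rod photoreceptor genes, 8 were higher and 12 lower, and 0 had an unadjusted p under 0.05 or were called by limma. Naive microglia held more Pax6 RNA than either ONC group, at 6384 ± 626 (SD, n = 4) in WT and 5700 ± 606 (SD, n = 4) in KO.

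RNA of other cell types also differed between libraries. Of 12 RGC genes tested, 10 were higher in KO, 3 at an unadjusted p under 0.05 and 0 called by limma. The neurofilament gene Nefh was at 0, 28.8 and 35.1 in WT and at 56.6 to 75.01 in KO (adjusted p = 0.261). The T cell genes Trbc2 and Trac, constant regions of the T cell receptor, were low throughout. Trbc2 was at 45.6, 26.5 and 17.6 in WT and at 2.14 to 3.59 in KO (-2.99 ± 0.72, adjusted p = 0.127), and Trac at 75.2, 23.01 and 25.7 in WT and at 3.22 to 10.2 in KO (-2.33 ± 0.72, adjusted p = 0.265). All KO libraries lay below all WT libraries in Trbc2, Trac, Cd2 and Cd3g, 4 of 11 T and NK cell genes tested, against 2.38% of all genes. Of the 11, 7 were lower and 4 higher in KO (median -0.31). Cd4, which macrophages can also express, was above all WT libraries in all KO libraries, at 10.4 to 77.8 in WT and 98.6 to 344.8 in KO. The summed share of the list overlapped, at 0.00738, 0.0144 and 0.00842% in WT and 0.0115 to 0.0158% in KO. The KO values of Trbc2 were at or below the 3-read limit. The 7 listed red blood cell genes, 5 of them tested, made up 0.000250, 0.00764 and 0.000236% of normalized counts in WT and 0.00277 to 0.0157% in KO, with overlapping groups. Of 12 pigment epithelium and melanocyte genes tested, 9 were higher and 3 lower in KO (median 0.96), 2 higher with an unadjusted p below 0.05, and limma called 0. The share of all 14 listed genes was 0.0658, 0.177 and 0.137% in WT and 0.221 to 0.379% in KO, with no overlap. Trf, the transferrin gene, made up most of that share in every library. It was at 23630 to 43520 in WT and 65250 to 75850 in KO (1.02 ± 0.26). Tyrp1, an enzyme of melanin synthesis, was at 0 to 73.7 in WT and reached 1813 in KO replicate 4 alone, against 3.26 to 144.7 in the other KO libraries.

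Homeostatic microglia genes did not pass the test in either direction. Of 18, 10 were higher and 8 lower, none of them called by limma and 0 with an unadjusted p below 0.05, and the median log2 fold change was 0.11. P2ry12 had a log2 fold change of -0.06 ± 0.33 and Tmem119 of -0.16 ± 0.34. Cx3cr1 was at 54810, 35530 and 33360 in WT and at 46130, 33810, 12870 and 22400 in KO, with overlapping groups (adjusted p = 0.607). Its mean in naive retinas was 54460 in WT and 20860 in KO (limma adjusted p = 0.0522). After elevation of intraocular pressure the mean of Cx3cr1 was 41170 in WT and 1083 in KO (limma adjusted p = 1.41e-08). The causes of these differences in Cx3cr1 were not tested. In naive retinas all 18 had lower values in KO (median -0.90), 16 at an unadjusted p under 0.05, and KO naive replicate 3 stood apart with homeostatic genes at 5.76% of normalized counts, against 2.11 to 2.76% in the other naive KO libraries and 4.65 to 5.74% in naive WT.

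Disease-associated microglia genes, which rise around plaques and dying neurons, gave 15 of 24 higher, with 0 called by limma and 1 at an unadjusted p below 0.05. That one was Apoe, the lipid carrier. Its normalized count was 30980, 211800 and 113500 in WT and 347200, 282800, 225500 and 245900 in KO (1.58 ± 0.49, adjusted p = 0.266). All KO libraries were above all WT libraries, by a small margin over WT replicate 2 and a wide one over WT replicate 1. Without WT replicate 1 the log2 fold change was 0.81. The 24 disease-associated genes together made up 5.29, 6.52 and 6.82% of normalized counts in WT and 7.89 to 8.65% in KO, with no overlap. Their median log2 fold change was 0.13. Among 33 cholesterol and lipid genes, 25 were higher, 5 at an unadjusted p under 0.05 (0 lower). Besides Apoe these were Lss, Cyp51, Fdft1 and Sqle, enzymes of cholesterol synthesis. Lss was at 217.4, 433.8 and 575.5 in WT and at 1622, 539.5, 621.5 and 1021 in KO (1.19 ± 0.31, adjusted p = 0.178), with KO replicate 2 within the WT range.

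Autophagy and debris clearance were questions of the study, and limma called none of the genes listed for autophagy or lysosomes. Of 44 autophagy machinery genes, 25 were higher and 19 lower in KO, 4 higher at an unadjusted p under 0.05 (0 lower), a share near the 7.18% of all genes. In 6 of the 44 all KO libraries lay above all WT libraries, against 4.18% of all genes. In 0 of the 44 did all lie below, against 2.38%. The median log2 fold change was 0.12. The 4 were Plekhm1, Ulk2, Ambra1 and Atg2a. Plekhm1, an adaptor for fusion of autophagosomes with lysosomes, was at 418.7, 771.0 and 1006 in WT and at 1397, 963.7, 989.0 and 1246 in KO (0.72 ± 0.25, adjusted p = 0.322). The core genes Atg7 and Becn1 had log2 fold changes of 0.26 ± 0.20 and -0.16 ± 0.18. Of 18 selective autophagy receptors, which tether cargo to the autophagosome, 10 were higher and 8 lower, and 0 had an unadjusted p under 0.05 or were called by limma. In 1 of the 18, Calcoco1, all KO libraries lay above all WT libraries, and in 1 all lay below, against the same shares of all genes. Sqstm1, encoding p62, was at 15470, 9084 and 13990 in WT and at 13300 to 14070 in KO (0.13 ± 0.15). Optn, the receptor optineurin, was at 306.0, 1914 and 765.0 in WT and at 749.9 to 1049 in KO (0.24 ± 0.61). The KO libraries lay within the WT range for both. Among 39 lysosomal genes 1 was higher (Gaa) and 1 lower (Atp6v1h) with an unadjusted p below 0.05, and limma called 0.

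Of 29 scavenger and phagocytic receptor genes, 7 were higher at an unadjusted p under 0.05 and 1 lower, with 0 called by limma. The 7 were Mrc1, Msr1, Cd163, Stab1, Timd4, Megf10 and Colec12, of which Mrc1, Cd163 and Stab1 also stand in the border macrophage list. The microglial receptors Mertk and Axl had log2 fold changes of 0.25 ± 0.31 and -0.23 ± 0.35. Among 10 tested SPP1 receptor genes, 2 integrin alpha chains were higher with an unadjusted p below 0.05, and limma called 0. Itga8 was at 0, 3.45 and 0 in WT and at 46.7, 26.1, 31.1 and 140.7 in KO (3 reads against 244, a ratio of 53.3 with a counting interval of 18.0 to 260, adjusted p = 0.263). Itga9 was at 281.8, 64.4 and 186.0 in WT and at 258.2 to 392.7 in KO (adjusted p = 0.324). Itgav and Cd44 had log2 fold changes of -0.22 ± 0.35 and 0.05 ± 0.32. Cfp, the complement protein properdin, was at 186.6, 157.7 and 343.9 in WT and at 369.4 to 1803 in KO (1.72 ± 0.44, adjusted p = 0.152), and the chemokine gene Ccl12 was at 30360, 7414 and 20600 in WT and at 6962 to 9807 in KO (-1.01 ± 0.48, adjusted p = 0.498). Hspa1b, an inducible heat shock protein, was at 208.0, 471.8 and 168.4 in WT and at 658.4, 814.7, 548.6 and 582.3 in KO (1.33 ± 0.28, adjusted p = 0.0694). Slc39a14, a zinc and iron importer, was at 750.3 to 1329 in WT and at 354.4 to 641.7 in KO (-0.87 ± 0.26, adjusted p = 0.249). The anti-inflammatory cytokine gene Il10 was at 0 in all WT libraries and at 10.7 to 29.4 in KO, at least 5.54-fold higher against the limit of 3 reads (adjusted p = 0.252).

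Genes of proteasomes, the respiratory chain and ribosomes were nearly all lower in KO, and for these the direction turned without WT replicate 1. Proteasome genes were lower in 30 of 31, nuclear respiratory chain genes in 42 of 43 and cytosolic ribosomal protein genes in 45 of 47, with medians of -0.26, -0.29 and -0.34 and 0 calls by limma (3, 3 and 2 genes at an unadjusted p under 0.05). Without WT replicate 1, 25 of 31, 33 of 43 and 39 of 47 were higher in KO, with medians of 0.05, 0.09 and 0.16. Proteasome genes made up 0.569% of normalized counts in WT replicate 1 and 0.327 to 0.376% in the other 6 libraries. Psmd14, a deubiquitinase of the proteasome lid and the list member with the lowest p, was at 4943, 1939 and 2774 in WT and at 1765 to 2088 in KO (-0.63 ± 0.20, adjusted p = 0.290), and its log2 fold change without WT replicate 1 was -0.27.

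**Figure D5:**
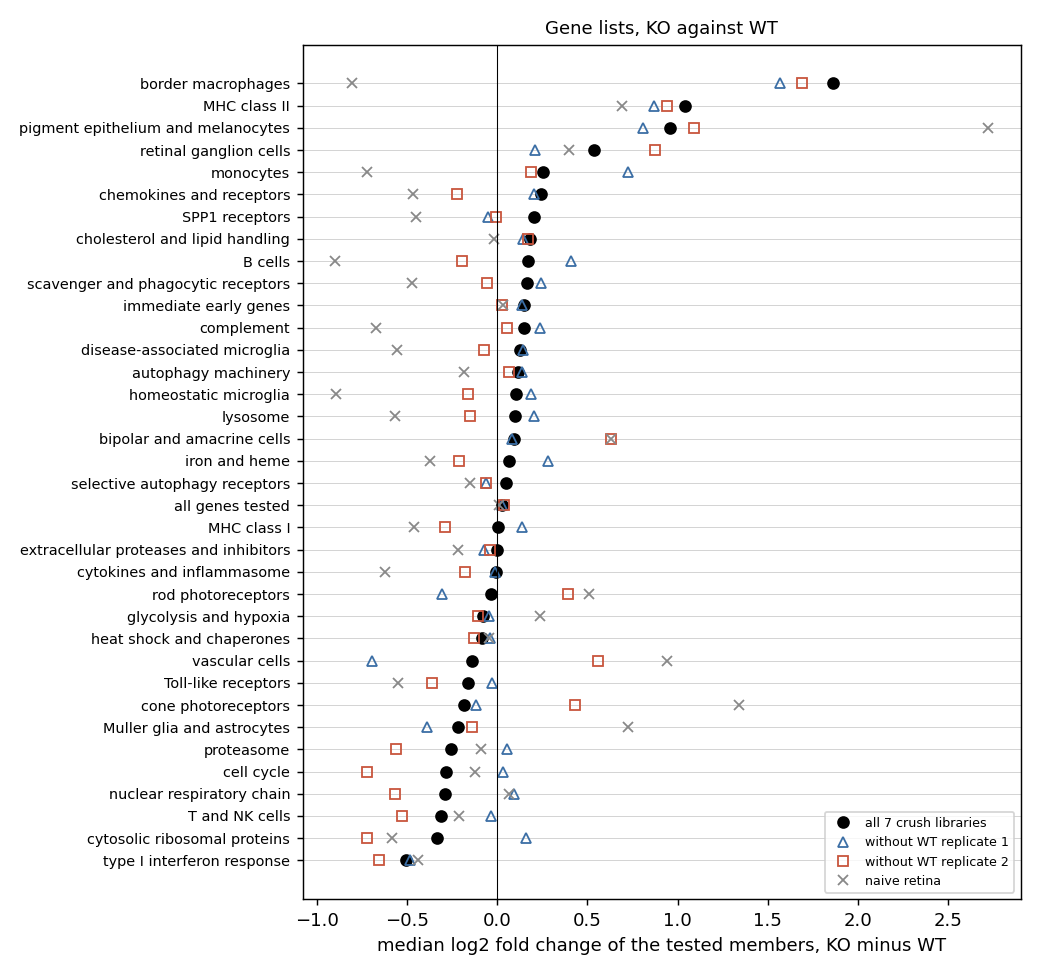
Median log2 fold change (KO minus WT) over the tested members of each list, without the Y chromosome, red blood cell, lens and neutrophil lists, after ONC with all 7 libraries (black), without WT replicate 1 (triangles) and without WT replicate 2 (squares), and in naive retinas (grey crosses). Among the lists plotted, border macrophages (1.86) stay highest without either WT library and type I interferon response (-0.50) stays below 0, while proteasome, respiratory chain and ribosomal lists cross 0 without WT replicate 1.

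To ask whether a difference between genotypes after ONC departed from that in naive retinas, the interaction was tested in the same fit. The naive comparison itself gave 70 calls (0.458%). In the interaction 13 genes were called (0.0851%), 10 above 0 (0.0655%) and 3 below (0.0196%). Tlr5, Vnn3, Tnc and Lyve1 were among those called after ONC too, with interaction values of 5.60, 5.94, 2.91 and 3.53 on the log2 scale (adjusted p = 0.00815, 0.0476, 0.00815 and 0.0476). Lag3, an inhibitory receptor that binds MHC class II, was at 1113 in naive WT and 301.9 in naive KO (means, n = 4), and at 1241, 2145 and 2300 in WT and 2483 to 3455 in KO after ONC (interaction 2.62, adjusted p = 0.00815). H2-Oa had an interaction of 2.29 (adjusted p = 0.0476), with a naive difference of -1.76 and one of 0.53 after ONC. Arap3, Pygl, Glra2 and AI593442 likewise had a difference below 0 in naive retinas and above 0 after ONC, and Ptprr, Ildr2 and Gm10719 the reverse. Of the 18 border macrophage genes 17 had an interaction above 0, 15 at an unadjusted p under 0.05, against 8.91% of all genes above 0 and 4.32% below. Homeostatic microglia genes moved with them, with an interaction above 0 in 18 of 18, 10 at an unadjusted p under 0.05 and a median of 0.93. Their part in the border macrophage interaction was not tested. KO naive replicate 3 stood apart from the other naive KO libraries, with rod genes at 1.41% of normalized counts against 3.82 to 4.48%, where naive WT libraries had 1.83 to 2.22%, and 656 genes were called without it. Leaving out any other naive library gave 3 to 5 calls. Without WT replicate 2 after ONC there were 225, without WT replicate 3 there were 43, without WT replicate 1 there were 8, and without a KO library after ONC 3 to 22.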

How the data were processed

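GFP+ retinal microglia were profiled by RNA-seq with 150-bp paired-end reads. The paper's methods name salmon and the submitters' processing notes name STAR, both with DESeq2 and GRCm38. The authors deposited normalized counts, a signal value in which reads are scaled by one factor per library, covering 35825 genes. In the 7 ONC libraries 100% of values were whole multiples (within 0.02) of 1 read. With salmon such reads are rounded estimates. Strand use in counting was not given in the sources used here.

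Groups were taken from the sample labels. Genes reaching 10 normalized counts in 3 or more of the 7 ONC libraries were tested as log2(normalized count + 1), a scale that understates changes of low genes, with limma 3.58.1 in R 4.3.3 over 23 libraries and 6 groups, with an intensity trend. edgeR 4.0.16 and DESeq2 1.42.0 were run on recovered reads. Replicates are separate libraries of pooled mice, and where nothing names separate litters or days, p-values measure the spread between these samples. Positions are GENCODE M21 (GRCm38), with 35436 gene IDs matched without version and 34732 with it. Promoters are RefSeq GRCm38.p6. Figures were drawn with matplotlib 3.10.9 in Python 3.11.15, and tables were handled with numpy 2.4.6 and pandas 2.3.3. The procedure was tested on simulated data.

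The members, gene lists and rules for named genes were chosen with earlier results of these data known. Named were, among called genes with a mean normalized count of 50 or more and no overlap between groups, up to 10 largest rises and falls also called in the ONC libraries alone and the 5 largest of the rest, then called list members, the 2 members of each cell state list with the smallest p, Spp1, Cx3cr1 and Y-linked genes. Sema6a, Dpf1, Gipc2, Mid1-ps1, Rps12l1, Rps12-ps3, Rps12, Krt80, the interaction genes and other list members given as examples were named after their values were seen.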

Additional observations from a re-analysis of the deposited data

Results flagged for a closer look

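Over 66 named genes, 5 single KO libraries lay far from the other 3 of their group (Dixon's ratio over 4 libraries, which chance flags in about 1 of 20 groups). Spp1 was at 15 in KO replicate 3 and at 4750 to 6811 in the others. Cd74 was at 87320 in KO replicate 1 and at 25860 to 28690 in the others. Calcoco1, an autophagy receptor, was at 847.1 in KO replicate 4 and at 606.9 to 636.9 in the others. Fundc1, a mitophagy receptor, was at 3193 in KO replicate 3 and at 2547 to 2630 in the others. Cycs, cytochrome c, was at 2584 in KO replicate 2 and at 1907 to 1959 in the others.

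The difference between genotypes after ONC departed from that in naive retinas, by the interaction term in limma, in 4 named genes. The departure was 5.94 for Vnn3, 3.53 for Lyve1, 2.91 for Tnc and 5.60 for Tlr5 on the log2 scale. In each, all 4 KO libraries were above all 3 WT libraries after ONC, a pattern found in 4.18% of all genes. For Vnn3, Lyve1 and Tnc, no overlap was part of the rule that named them, and Tlr5 was named for its call in these same libraries. The pattern therefore adds no support for any of the 4.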

How the results depend on the processing

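The 15 calls between KO and WT were within 10 to 16 with DESeq2, with quantile or upper-quartile normalization, with a GC and length trend taken out, without a filter, with a minimum mean of 50, with the replicate block and with a pseudocount of 5 or 0.5. They became 89 with the rod list as a covariate, 2 in the 7 ONC libraries alone and 1 with edgeR. Leaving out 1 library gave 2 to 844. Alternatives chosen after seeing the data gave 13 with the Y chromosome list as a covariate, 23 with the ribosomal protein list, and 5 and 3 in the ONC libraries alone without WT replicate 2 and WT replicate 1. The causes of these shifts were not tested. The 13 interaction calls became 8 without a filter, 75 with quantile normalization, 7 with the replicate block, 139 with the rod list and 31 without the GC and length trend, and leaving out 1 library gave 3 to 656. Spp1 stayed lower, by -4.49 to -1.58 when 1 library was left out. Replicate numbers did not pair the libraries: deviations of same-numbered WT and KO libraries correlated at -0.0775, -0.279 and -0.0734, and the replicate block gave 13 calls, 12 higher and 1 lower. Over the named genes and alternatives, 1577 values were compared with those reported: 1447 kept their direction and side of the threshold, 102 fell below it, 26 rose past it and 2 turned, Uty to -0.16 and Eif2s3y to -0.274 with the Y chromosome covariate. Counts of 3 reads or fewer, as in WT for Tlr5, Gipc2 and Il10, limit the size that can be given for those differences.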
